A study of Mus musculus with 12 samples.

Results

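Cholesterol is made from acetyl-CoA through mevalonate, isoprenoids, squalene and lanosterol. The transcription factors SREBP1 and SREBP2 switch on the genes of this route when sterols in the endoplasmic reticulum fall: SCAP carries the SREBP precursor to the Golgi for cleavage, and INSIG proteins hold SCAP back when sterols are plentiful. Sterol excess acts the other way through the liver X receptors, which respond to oxysterols and raise genes of cholesterol export. Mast cells hold large stores of secretory granules and many membranes, and isoprenoids from the same route are attached to small GTPases.

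The genes described here are 28 genes grouped under cholesterol synthesis and uptake, though none of them encodes a cell surface receptor for uptake. They were chosen by their function, with earlier results of these data known. Among them are 8 enzymes of the mevalonate and isoprenoid steps and 11 of squalene and sterol synthesis. The rest are 5 genes of SREBP control, the sterol carrier Stard4, and 3 fatty acid enzymes under SREBP control. Probe sets were taken where their annotated symbol was exactly 1 of these names, which gave 60 of the 45137 probe sets on the 2 chips, 52 on chip A and 8 on chip B. Acat2, which makes acetoacetyl-CoA, had no such probe set. In all, 18193 genes had a probe set with 1 symbol. The other 27 genes all had at least 1 probe set that passed the filter on low signals, and 49 of their probe sets did. Each gene was read by its brightest tested probe set on chip A, or on chip B for Insig1.

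The study compared mast cell precursors with mature mast cells, both grown from mouse bone marrow of the femur and fibula in RPMI with serum and IL-3, the cytokine that drives mast cell outgrowth. Precursors were cultured for 14 to 16 days (M1 female, M3 and M5 male) and mature cells for 57 to 110 days (M2 and M4 male, M6 female), so each stage had 3 cultures. RNA of each culture was hybridised to 2 Affymetrix arrays, MOE430A (called chip A) and MOE430B (called chip B), which makes 12 arrays, and the values are MAS5 signal, a linear brightness per probe set. The labels put the purity of every culture at about 80%, judged by flow cytometry and morphology, with monocytes, macrophages and stromal cells of the marrow as possible contaminants. Strain, genotype and age of the mice are not given in the sources used here, and nothing says whether cultures came from separate animals, so p-values measure the spread between these cultures. Stem cells, named in the study's title, were not analysed here. Because each array measures a whole culture, fewer cells of a type and less RNA per cell cannot be told apart.

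The 9 tested mast cell markers, of 11 listed, were above the median array signal in all 6 cultures. The brightest was Cpa3, a granule protease, with signals of 135749 to 283801, and the lowest value was that of Hdc, 1117 in M2. Mcpt4 did not pass the filter on low signals and Il1rl1 had no probe set. The median array signal ran from 534 to 692 on chip A and from 816 to 913 on chip B. The summed signal of macrophage and neutrophil markers was also higher in precursor cultures. Whether this RNA came from other cells or from the mast cell precursors themselves was not tested. Summed over 12 tested macrophage and monocyte markers, of 16 listed, the signal was 46328 to 88931 in precursors and 20567 to 23374 in mature cultures. Of the 12, 6 fell with maturation (Lyz2, Csf1r, Mpeg1, Clec7a, Cd68 and Adgre1, adjusted p of 0.00464 to 0.0326 by limma). Summed over 8 tested neutrophil granule genes, of 14 listed, the signal was 83777 to 200998 in precursors and 3119 to 6055 in mature cultures, where Ctsg and Chil3 fell. A marker could pass the filter on low signals through the 3 precursor cultures alone. Mpeg1 and Chil3 were set to the floor for low signals in all 3 mature cultures. Of 9 mast cell markers 1 fell, Hdc, the enzyme that makes histamine. Of 6 tested stromal markers, of 12 listed, 1 fell, Igfbp4. Col1a1, Col3a1, Lum, Dcn, Cxcl12 and Pdgfrb had probe sets that did not pass the filter on low signals. None of 5 basophil genes, of 6 listed, or 21 cell division genes, of 22 listed, passed the test (2 and 0 at an unadjusted p below 0.05).

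A single culture stood apart in the cholesterol genes before any comparison of stages. The precursor culture M3 had the lowest signal of the 6 cultures in 20 of 27 genes (74.1%), where it was lowest in 11.9% of all tested sets of chip A and 13.4% of chip B. In 13 of the 20, M3 lay more than 1.5-fold below the next lowest culture. The mean level of the 27 genes, as log2 signal minus each gene's mean over the 6 cultures, was −1.04 in M3, and 0.27 in M1, 0.0024 in M5, 0.46 in M2, 0.25 in M4 and 0.057 in M6. Over all tested probe sets the same quantity in M3 was 0.020 on chip A and 0.021 on chip B. Each array was scaled to the same trimmed mean, which holds that all-set value near 0 in every culture. The mean level in M3 was −1.03 after quantile normalization, with 21 genes lowest, and −1.05 after scaling to the 75th percentile, with 22 lowest. Results are given with and without M3 where it decides them.

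**Figure D1:**
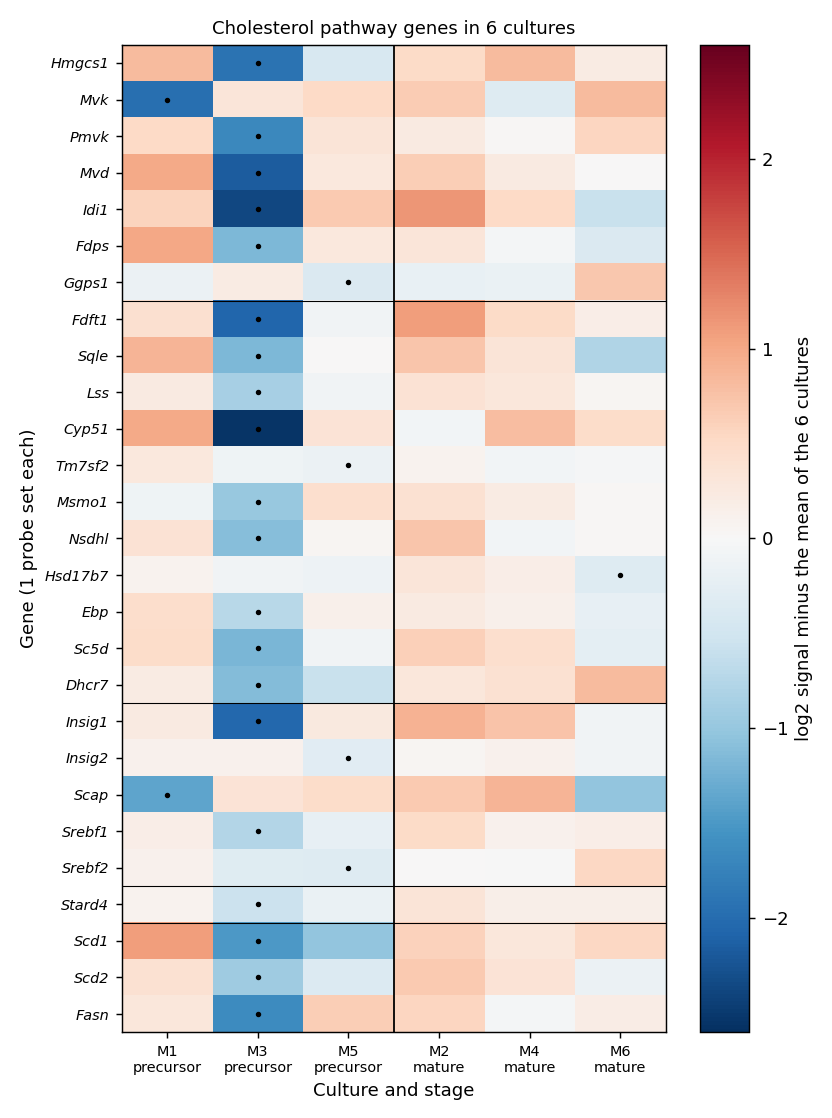
Log2 signal of each of 27 genes (rows, 1 probe set each, grouped by role) in the 6 cultures (columns), minus the gene's mean over the 6 cultures. Blue is below that mean, red above, and a dot marks the culture with the lowest signal. The M3 column holds 20 of the 27 dots.

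Promoters of 4 genes are shown because their genes span the range of responses: Hmgcs1, Idi1 and Insig1 were among the genes with the widest gap between M3 and the other precursors, and Tm7sf2 was nearly level across the cultures. The windows run from 250 bases before to 50 bases after the annotated start and are RefSeq sequence on GRCm38.p6, written 5′ to 3′ on the gene's own strand. They lie at chr13:119690101-119690400 (plus strand) for Hmgcs1, chr13:8885356-8885655 (plus) for Idi1, chr5:28071162-28071461 (plus) for Insig1 and chr19:6067801-6068100 (minus) for Tm7sf2. Capitals mark CCAAT on either strand (ATTGG on the strand shown), the box bound by NF-Y, and TCACNCCAC, a form of the sterol response element bound by SREBP.
Hmgcs1: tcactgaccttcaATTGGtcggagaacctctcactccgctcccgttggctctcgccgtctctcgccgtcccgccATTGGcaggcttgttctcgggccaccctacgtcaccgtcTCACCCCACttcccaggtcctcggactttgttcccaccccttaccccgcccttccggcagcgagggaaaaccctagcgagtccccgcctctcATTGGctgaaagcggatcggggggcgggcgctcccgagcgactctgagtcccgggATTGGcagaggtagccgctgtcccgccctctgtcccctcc
Idi1: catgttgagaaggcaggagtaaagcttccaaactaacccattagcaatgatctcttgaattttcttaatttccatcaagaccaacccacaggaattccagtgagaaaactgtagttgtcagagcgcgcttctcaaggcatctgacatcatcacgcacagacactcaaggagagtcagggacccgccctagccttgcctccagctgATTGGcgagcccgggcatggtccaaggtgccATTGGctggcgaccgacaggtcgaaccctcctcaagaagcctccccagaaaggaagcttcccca
Insig1: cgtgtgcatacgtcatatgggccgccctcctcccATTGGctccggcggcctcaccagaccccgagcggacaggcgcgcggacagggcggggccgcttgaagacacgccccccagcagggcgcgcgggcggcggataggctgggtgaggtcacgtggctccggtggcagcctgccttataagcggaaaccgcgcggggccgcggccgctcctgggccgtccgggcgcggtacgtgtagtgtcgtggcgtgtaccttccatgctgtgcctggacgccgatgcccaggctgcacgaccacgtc
Tm7sf2: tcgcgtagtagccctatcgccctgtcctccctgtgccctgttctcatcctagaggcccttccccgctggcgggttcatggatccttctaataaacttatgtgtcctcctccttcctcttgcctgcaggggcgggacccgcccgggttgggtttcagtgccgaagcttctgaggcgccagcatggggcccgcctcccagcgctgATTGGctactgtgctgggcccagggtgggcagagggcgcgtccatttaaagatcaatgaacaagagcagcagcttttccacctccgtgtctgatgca

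Promoter windows were found for 22 of the 28 genes, 30 windows in all. TCACNCCAC, searched on both strands, was in 1 of the 30 (3.33%), that of Hmgcs1, and in 1.24% of 32851 mouse windows of the same length. CCAAT was in 21 of the 30 (70%) and in 37.4% of all windows. GGGCGG, the core of the GC box bound by SP1 and not marked above, was in 23 of the 30 (76.7%) and in 35.7% of all windows. Matches of these motifs can overlap by a few bases. The Hmgcs1 window holds 4 CCAAT matches, the Idi1 window 2, and those of Insig1 and Tm7sf2 1 each. So the level gene Tm7sf2 and the variable gene Insig1 both had 1 CCAAT match in this window. A match describes letters and does not show binding.

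In the mevalonate steps, M3 was lowest in 5 of 7 genes. Hmgcs1, the cytosolic synthase that makes HMG-CoA, had a signal of 53264 in M1, 7963 in M3 and 22589 in M5 among precursors, and of the mature cultures, M2 had 42579.9, M4 53854 and M6 35143. M3 lay 4.36-fold below the mean (on the log2 scale) of M1 and M5, and M1 was as high as the mature cultures. All 4 tested Hmgcs1 probe sets had M3 lowest. Idi1, the isomerase that makes dimethylallyl pyrophosphate, read 7051, 918 and 7608 in M1, M3 and M5, and 10477, 6745 and 3183 in M2, M4 and M6. Its M3 value was 7.98-fold below the other precursors, and M6 was lower than M1 and M5. Mvd, the decarboxylase that makes isopentenyl pyrophosphate, read 2205, 232 and 1350.3 in precursors and 1727, 1305 and 1121 in mature cultures. The M3 value was below the floor of 247 to which low signals were set, and at that floor it was 6.99-fold below the other precursors, while the remaining 5 cultures overlapped. The other tested Mvd set, above the floor in every culture, had M3 lowest by 1.28-fold, at 780 against 948 in M1 and 1055 in M5.

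Pmvk, phosphomevalonate kinase, had signals of 1349.9, 296 and 1196 in M1, M3 and M5 and of 1119, 962 and 1383 in M2, M4 and M6. Fdps, which makes farnesyl pyrophosphate, had 2176, 481 and 1301, then 1336, 1049.9 and 833. In both genes M3 was lowest, by 4.29-fold and 3.50-fold against the other precursors, and M1 and M5 lay among or above the mature cultures. Mvk and Ggps1 did otherwise. Mvk, mevalonate kinase, was lowest in M1, at 188 and so below the floor of 247. It read 1209.5 in M3, 1384 in M5, 1524 in M2, 761 in M4 and 1699 in M6. Ggps1, which makes geranylgeranyl pyrophosphate for protein prenylation, ran from 716 in M5 to 1514 in M6, with M3 at 1082 second highest.

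In squalene and sterol synthesis, M3 was lowest in 9 of 11 genes. Cyp51, the lanosterol demethylase, had the widest gap of all 27: 3836 in M1, 332 in M3 and 2494 in M5, and 1852 in M2, 3371 in M4 and 2707 in M6. M3 was 9.33-fold below the other precursors, of which M1 was above all mature cultures and M5 within their range. Fdft1, squalene synthase, the first enzyme committed to sterols, read 2959, 528 and 2071 in M1, M3 and M5, and 4662, 3104 and 2476 in M2, M4 and M6. M3 was 4.69-fold below the other precursors on this probe set, and 2 of the 4 tested Fdft1 probe sets had M3 lowest. Sqle, squalene epoxidase, a rate-limiting enzyme, read 7292, 1770.3 and 3954 in precursors and 6549.7, 4985 and 2293 in mature cultures, with M6 close to M3 and the stages overlapping.

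Of the other 7 sterol enzymes described next, 5 had M3 lowest, with smaller gaps. Lss, lanosterol synthase, was 3832 in M3 and 6487 to 8972 elsewhere. Sc5d, a sterol desaturase, was 718 in M3 and 1371 to 2511 elsewhere. Msmo1, the methylsterol oxidase, was 613 in M3 and 1128 to 1658 elsewhere. These 3 genes were 1.90-fold to 2.59-fold lower in M3 than in the other precursors. Nsdhl, which helps remove methyl groups from the sterol ring, was 1678 in M3 and 3459 to 5977 elsewhere. Ebp, a sterol isomerase, was 3863 in M3 and 5505 to 8755 elsewhere. Both genes lie on the X chromosome and were 2.52-fold and 2.02-fold lower in M3. Tm7sf2, a sterol reductase, was 1700.0 in M5 and 2288 in M1, its extremes, a range of 1.35-fold. Hsd17b7, a sterol ketoreductase, ran from 1115 in M6 to 1736 in M2, a range of 1.56-fold. On these sets M3 lay within the other cultures. The other 2 tested Hsd17b7 sets, on chip B, disagreed: M3 was lowest on the brighter one, at 2324, 3.22-fold below the other precursors, and highest on the other, at 1968.

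Dhcr7, whose enzyme reduces the last double bond to give cholesterol, was 1 of 2 genes in which the stages did not overlap. Its signal was 3022 in M1, 1187 in M3 and 1726 in M5, and 3164 in M2, 3397 in M4 and 4579.8 in M6. All 3 mature cultures were above all 3 precursors, by a small step from M1 to M2.

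**Figure D2:**
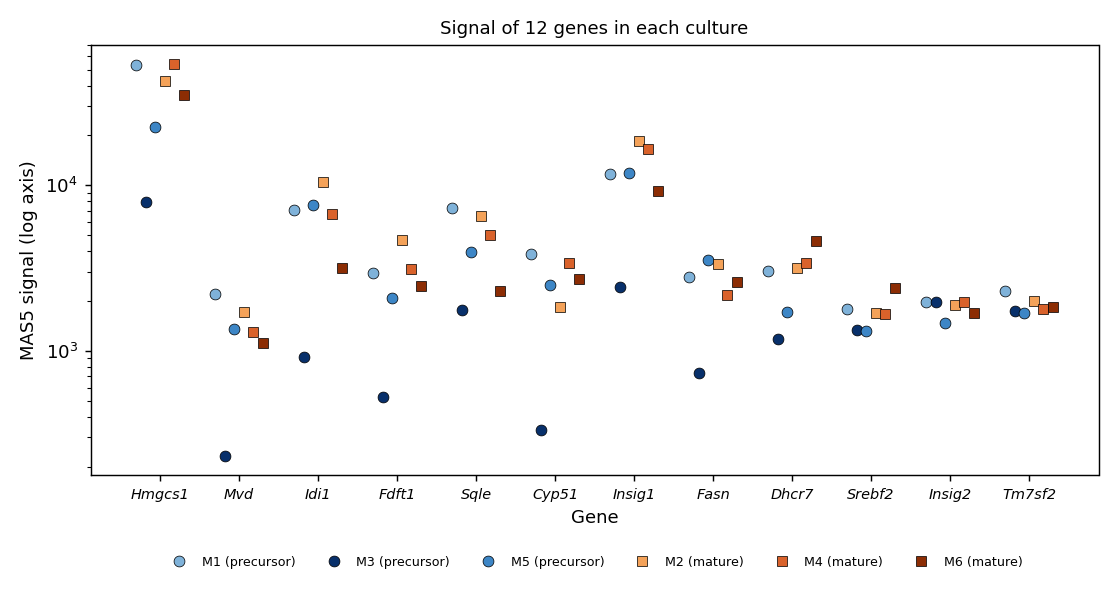
MAS5 signal (log axis) of 12 genes in each culture, circles for precursors and squares for mature cultures. Heights compare cultures within a gene only. The M3 circle is the lowest point in 9 of the 12 genes, and lies among the others for Srebf2, Insig2 and Tm7sf2.

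Among the control genes, the feedback gene Insig1 followed the enzymes and its paralogue did not. Insig1, itself a SREBP target, had signals of 11623 in M1, 2419.9 in M3 and 11853 in M5, and 18408 in M2, 16582 in M4 and 9223 in M6. M3 was 4.85-fold below the other precursors, and M6 was below M1 and M5. Insig2 stayed between 1474 in M5 and 1968 in M4, a range of 1.34-fold, with M3 at 1964. Srebf1, which encodes SREBP1, was 2724 in M3 and 3951 to 6481 elsewhere. Srebf2, which encodes SREBP2, the form most tied to cholesterol genes, was 1793, 1340.1 and 1314 in M1, M3 and M5 and 1683, 1658 and 2398 in M2, M4 and M6. M3 and M5 were nearly equal in Srebf2 although they differed 2.84-fold in Hmgcs1, and a further Srebf2 set had M3 lowest, at 555. Scap, which encodes the escort of SREBP, was dim, at 261 in M1, 332 in M6 and 863 to 1238 in the other 4 cultures. Both low values on this set were in female cultures. A further Scap set, on chip B, did not pass the filter and did not show this. Its signal was 2112 in M6 and 742 in M1, and 1814 in M4, 317 in M2, 159 in M3 and 123 in M5.

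Stard4, a carrier that moves sterol between membranes, was the other gene without overlap: 4206 in M1, 2685 in M3 and 3512 in M5, and 5016 in M2, 4421 in M4 and 4389 in M6. The step from M1 to M6 was again small, and in the other 2 tested Stard4 sets the stages overlapped, with differences of 0.049 and 0.19. M3 was lowest in all 3 sets.

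In the fatty acid enzymes M3 was lowest in all 3. Fasn, fatty acid synthase, had 2780.1 in M1, 734 in M3 and 3547 in M5, and 3338 in M2, 2184 in M4 and 2593 in M6. M3 was 4.28-fold below the other precursors and M5 was the highest culture. Scd1, a desaturase that makes monounsaturated fatty acids, read 6917, 1157 and 1589 in M1, M3 and M5, and 4935, 4002 and 4752 in M2, M4 and M6. Here M5 was low together with M3, and M1 was the highest culture. Its paralogue Scd2 was 7047 in M3, 10348 in M5 and 12071 to 21205 in the other 4.

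Most of the spread of these genes lay in M3. The median range over the 6 cultures was 3.86-fold for the 27 genes and 2.01-fold for all tested chip A sets. Over the 5 cultures other than M3 it was 1.97-fold for the 27 genes and 1.92-fold for all chip A sets. The median SD among the 3 precursors was 0.84 (log2), against 0.32 among the 3 mature cultures, and the SD was larger in precursors in 23 of 27 genes. For all chip A sets both medians were alike, 0.32 and 0.34. Over all 49 tested probe sets of these genes M3 was lowest in 34 (69.4%). This count is by raw signal, and on a Fdft1 set and a Cyp51 set M3 shared the floor with another culture. Of the 13 genes with more than 1 tested set, 11 had M3 lowest in at least 1 set, and Ggps1 and Insig2 had it in none.

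The stage comparison asked whether mature mast cells and precursors differ in these genes. None of the 27 passed the test (limma on log2 signal, Benjamini-Hochberg adjustment over all tested sets of a chip, adjusted p below 0.05). At an unadjusted p below 0.05 there was 1 of the 27, and 763 of 11576 chip A and 763 of 11880 chip B sets. After adjustment the test called 61 sets of chip A (0.527%) and 11 of chip B (0.0926%), a rate at which fewer than 1 of 27 genes would be called. The mean was higher in mature cultures in 25 of the 27 genes (92.6%), and in 52.1% of all chip A sets. The median difference, mature minus precursor, was 0.48 on the log2 scale, and 0.018 over all chip A sets. Groups that did not overlap were seen in 2 of 27 (7.41%), below the 12.2% of chip A and 12.0% of chip B sets.

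The widest differences were those of Fdft1, 1.16 ± 0.54 (SE of the fit, 3 cultures a stage, limma adjusted p = 0.748), Insig1, 1.03 ± 0.53 (adjusted p = 0.780), and Hmgcs1, 1.02 ± 0.53 (adjusted p = 0.788). Dhcr7 was 1.00 ± 0.34 higher in mature cultures (95% interval 0.24 to 1.75), with the smallest adjusted p of the 27, 0.482 by limma. Scd1 followed at 0.96 ± 0.54 (limma adjusted p = 0.808). The lowest differences were those of Fdps, −0.074 ± 0.48, and Tm7sf2, −0.011 ± 0.24. The 95% intervals reached from 0.54 to 1.59 to either side of the difference. Of the 27 intervals 19 contained a log2 difference of 1, so a change of that size stayed possible in those genes. All of these but that of Dhcr7 also contained 0.

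Without M3 the direction was no longer shared. Of the 27 genes 18 were then higher in mature cultures (66.7%), the median difference was 0.12, and none passed the test (smallest limma adjusted p 0.737, 0 at an unadjusted p below 0.05). Pmvk, Mvd, Idi1, Sqle, Cyp51, Ebp and Fasn changed sign, to between −0.15 and −0.35. Hmgcs1 came to 0.32, Fdft1 to 0.41, Insig1 to 0.27 and Scd1 to 0.46. Dhcr7 came to 0.68, and Mvk grew to 1.10, since its low culture is M1, where its value was set to the floor. Without M1 instead, Scd1 alone passed, at a difference of 1.75 with a limma adjusted p of 0.0383.

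**Figure D3:**
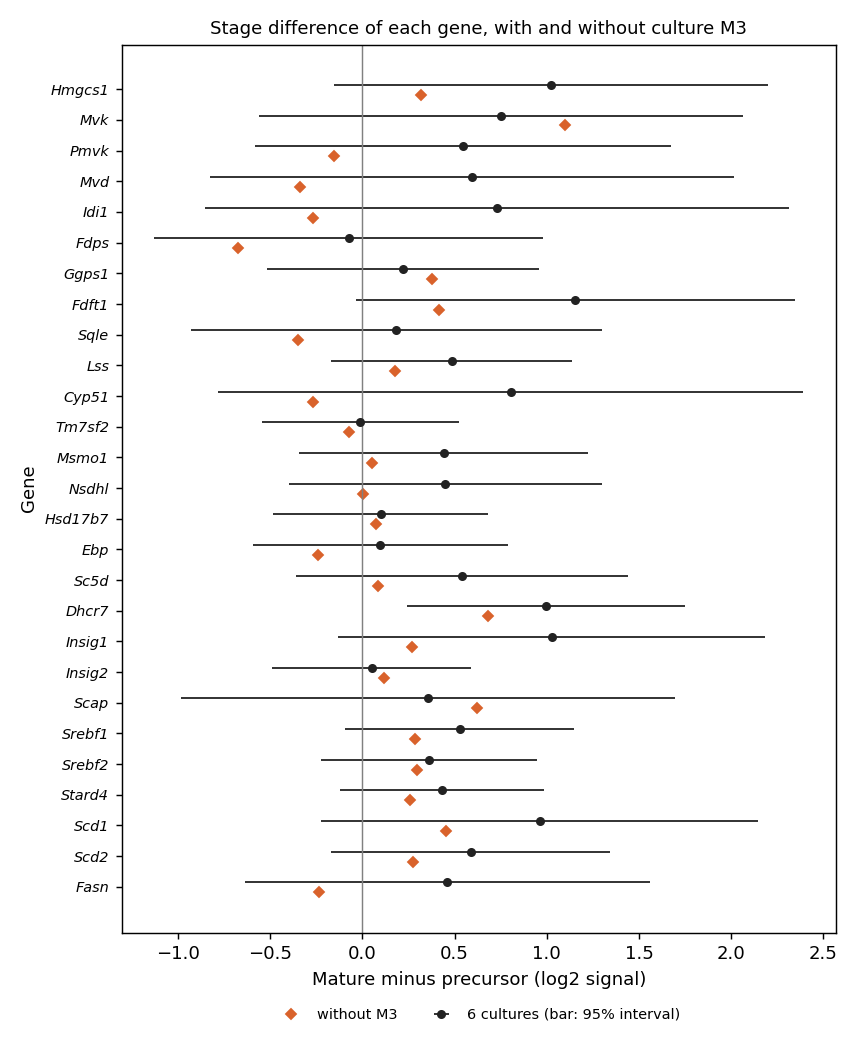
Difference between mature and precursor cultures in log2 signal for the 27 genes. Black points are the fit on all 6 cultures with 95% intervals, and orange diamonds are the difference without M3. Only the Dhcr7 interval lies fully above 0, and most diamonds lie nearer to 0 or below it.

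The comparison also moved with groups of arrays. By the level of the poly-A control RNAs added at labelling, the cultures fell into M1, M4 and M6 (low) and M3, M5 and M2 (high). Within the low group, which lacks M3, 8 of the 27 genes were higher in mature cultures, with a median difference of −0.22. Within the high group, 26 were higher, with a median of 0.98. By fluidics station, the difference was 0.14 with 15 higher on station 1 (M1 and M2) and 0.59 with 25 higher on station 2, which holds M3. The direction thus did not hold in the arrays without M3 at the low spike level. The 3′ to 5′ signal ratio of control transcripts, a sign of RNA integrity, also moved with M3 and with stage. On chip A the Gapdh ratio was 13.5 in M3, above M1 (9.11) and M5 (9.39), and 12.8 to 19.3 in mature cultures. The actin ratio was 7.04 in M3, above M1 (6.34) and M5 (4.81), and 9.73 to 10.1 in mature cultures, without overlap of the stages. The part of RNA integrity in the stage and M3 values was not tested.

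The rest of the SREBP programme was read through lists chosen by function. Of 12 tested genes of other SREBP targets in fatty acid and lipid synthesis, none passed the test (1 at an unadjusted p below 0.05), 11 were higher in mature cultures with a median difference of 0.39, and M3 was lowest in 7. Elovl5, an elongase, was 38373 in M3 and 43297 to 62979.9 elsewhere. Acly, which supplies cytosolic acetyl-CoA, was 11631 in M3 and 15561 to 23974 elsewhere. On these sets both were low in M3 by less than 1.5-fold against the other precursors. The other tested Acly sets had M6 or M1 lowest, and the other Elovl5 set had M5 lowest. Further genes were singled out after their values were seen. Acsl3, an acyl-CoA synthetase, was 164 in M3, below the chip B floor of 359, and 809 to 3152 elsewhere. Elovl6 was 683 in M3 and 1269.5 to 2644 elsewhere, but its further tested sets had M2 or M6 lowest. Me1 and Acss2 went the other way: Me1 was highest in M3, at 1455, and Acss2 was 5122 in M3 against 1658 in M5. Over all 25 tested probe sets of this list M3 was lowest in 8 and highest in 3.

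Most tested genes of the liver X receptor list had their highest signal in M3. The list holds partner receptors as well as targets, and each gene was counted in 1 list only. Srebf1, Scd1 and Fasn, all lowest in M3, were counted with the SREBP genes and not here. A shared response of liver X receptor targets was not tested. The liver X receptors themselves were not read: Nr1h2 had no probe set of its exact symbol, and that of Nr1h3 did not pass the filter. Neither did that of the target Apoe. Of 6 tested genes, none passed the stage test (0 at an unadjusted p below 0.05), and M3 was the highest culture in 5, against 13.4% of chip A sets. Abcg1, a cholesterol exporter, had signals of 9451 in M1, 22897 in M3 and 5836 in M5, and 9126 in M2, 12268 in M4 and 15011 in M6. M3 was highest and M5 lowest, a 3.08-fold gap between M3 and the other precursors. Mylip, a ubiquitin ligase under liver X receptor control, read 5575, 8909.7 and 3882 in precursors and 6361, 7114 and 7539 in mature cultures, in a similar order. Of the others, named after their values were seen, Abca1, another exporter, was 2613 in M3 and 684 to 2377 elsewhere. Pltp, a phospholipid transfer protein, was 3269 in M3 and 640.3 to 1007 elsewhere, and Rxrb, a partner receptor, was 2201 in M3 and 1427 to 1985 elsewhere. Rxra, the other partner receptor, was instead lowest in M3 at 256. Another Abcg1 set, on chip B, did not have M3 highest (1512 against 2109 in M4). Over all 8 tested probe sets of this list M3 was highest in 5 and lowest in 1.

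**Figure D4:**
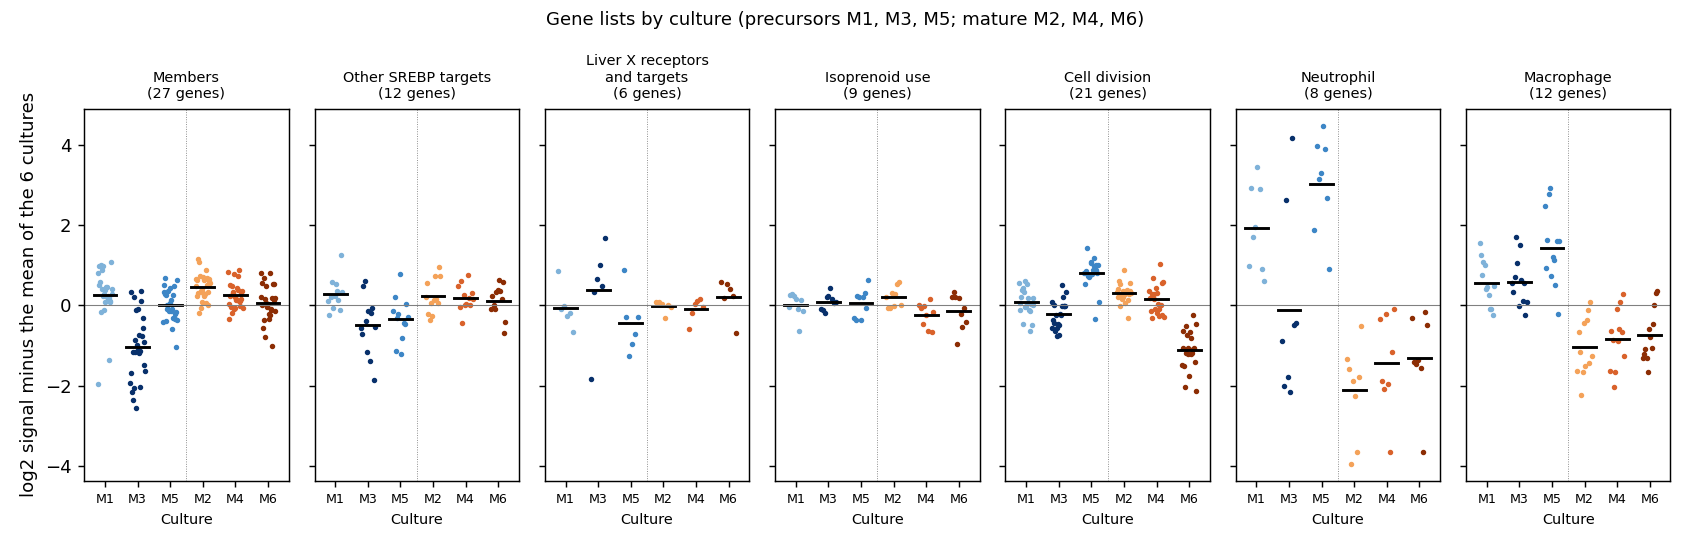
Log2 signal minus the gene's mean over 6 cultures, for each gene (points) of 7 lists in each culture, with the mean of the list as a bar. The mean of the cholesterol genes is lowest in M3 (−1.04). Other SREBP targets are low in M3 (−0.49) and M5 (−0.33), the liver X receptor list is high in M3 (0.39) and M6 (0.21) and low in M5 (−0.44), and cell division genes are low in M6 (−1.12).

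In other steps around the pathway M3 was seldom the lowest culture. Of 6 tested genes of SREBP processing and degradation, none passed the stage test (0 at an unadjusted p below 0.05) and M3 was lowest in 1. Their brightest were Rnf139, a ubiquitin ligase (6646 in M6 to 13064 in M5), and Mbtps2, the protease of the second SREBP cleavage (7121 in M5 to 10778 in M4). Of 11 genes of sterol esterification and lysosomal or membrane transport, none passed (2 unadjusted), 3 were higher in mature cultures, and M3 was highest in 4 and lowest in 1, Scarb1. Npc2, a lysosomal sterol carrier, was the brightest of them, from 70996 in M2 to 105817 in M6, and Nceh1, a cholesteryl ester hydrolase, ran from 4533 in M4 to 9674 in M5. Of 9 genes that use isoprenoids in prenylation, dolichol or ubiquinone synthesis, none passed (0 unadjusted) and M3 was lowest in 0. The brightest were Pggt1b, a subunit of geranylgeranyl transferase (7187 in M5 to 11731 in M6), and Coq2 of ubiquinone synthesis (6099 in M6 to 12717 in M5).

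Markers of other cells also set M3 apart from M1 and M5. The 8 neutrophil granule genes were lower in M3 by a median of 2.29 on the log2 scale, but not as a block. Ctsg was 23765 in M3 and Chil3 56623, both within or above the other precursors (12376 and 33816 for Ctsg, 23413 and 46428 for Chil3). Mpo and Ngp, named after their values were seen, were 614 and 601 in M3, as low as in mature cultures, against 18909 and 29861 in M1 and 39343 and 60669.5 in M5. Of the basophil list, Mcpt8, a protease also named after its values were seen, was 1502 in M3, 41656 in M1 and 24177 in M5, and Cd200r3 was 16068, 15546 and 17772 in the same cultures. Mcpt8 was 21.1-fold lower in M3 and Cd200r3 nearly level. The macrophage list was 0.36 lower in M3 and the mast cell list 0.33 higher, in medians on the log2 scale. The 21 cell division genes were lower in M3 by a median of 0.71. Their lowest culture was M6 in 18 of 21, with a summed signal of 34911 against 73153 in M3, and M6 was the lowest culture in 1 cholesterol gene. The part of cell composition and of cell division in the M3 values was not tested.

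Sex was compared because 2 of the genes lie on the X chromosome and each stage has 1 female culture. In a limma fit with stage and sex, none of the 27 genes passed, with 3 at an unadjusted p below 0.05, where 0.00864% of chip A sets (1 of 11576) and 0% of chip B sets (0 of 11880, 711 at an unadjusted p below 0.05) were called. The X-linked Nsdhl differed by 0.30 ± 0.41 (female minus male, limma adjusted p = 0.787) and Ebp by 0.18 ± 0.33 (adjusted p = 0.850). The lowest unadjusted p-values were those of Scap, −1.79 (limma adjusted p = 0.248), Dhcr7, 0.78 (adjusted p = 0.443), and Scd1, 1.22 (adjusted p = 0.444). M3 is 1 of the 4 male cultures, so its low values enter this difference. Both female cultures were at the low poly-A spike level, where M4 was the only male culture, and all cultures at the high level were male. Sex and spike level are thus hard to tell apart here. The untested chip B set of Scap did not follow its chip A set, with the female culture M6 highest. The interaction of stage and sex passed for none of the 27 genes (smallest limma adjusted p 0.495) and for 0 sets on either chip. At an unadjusted p below 0.05 it held in 7 of the 27, and in 875 of 11576 chip A and 679 of 11880 chip B sets, with 1 female culture behind each stage.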

How the data were processed

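RNA of 6 mast cell cultures was measured on 12 Affymetrix arrays, 1 MOE430A and 1 MOE430B array per culture. The authors deposited 1 linear intensity for each probe set (MAS5 signal, per the submitters' processing notes, version and settings not given in the sources used here). The values show that the authors scaled each array to a mean of about 1500, trimmed by 2% at each end. The deposited instrument records (unit: other) gave the fluidics station and lot. All arrays of a chip were scanned on 1 day, so scan day was not fitted as a block.

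Control sets were left out. Low signals were raised to the chip's 30th percentile, 247 for chip A and 359 for chip B, before log2 was taken. Sets with at least 3 of 6 arrays above the table's median (582 and 864) were tested: 11576 of 22626 on chip A, 11880 of 22511 on chip B. Stages were compared with limma 3.58.1 (lmFit, eBayes with an intensity trend) in R 4.3.3, two-sided, adjusted by Benjamini-Hochberg within a chip at 0.05. The fit was tested on simulated data. No detection calls were used, and the number of arrays limits the precision. Levels are compared within a probe set only.

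All 28 genes are named. Of other lists, genes past the test are named, or else the 2 brightest. Only sets with 1 gene symbol were read, 20380 of chip A and 14661 of chip B. Several symbols were listed for 691 and 245 sets, and none for 1555 and 7605. The genes and lists were chosen with earlier results of these data known. The results on M3 were chosen after its values were seen. Alternatives were other scalings, floors, filters, variance settings, blocks and probe sets, and each culture left out in turn. No paired analysis was possible because the cultures of the 2 stages share no number.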

Additional observations from a re-analysis of the deposited data

How the results depend on the processing

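The 27 stage differences were recomputed under 18 alternatives, 485 values in all. Of these 463 kept direction and side of the threshold, 21 changed sign and 1, Scd1, passed. With all cultures kept, signs changed only under array weights, for Fdps (0.12) and Ggps1 (−3.67e-05). Leaving out 1 culture at a time, the log2 difference ran from −0.68 to 0.41 for Fdps, −0.074 to 0.38 for Ggps1, −0.045 to 1.20 for Mvk, −0.088 to 0.13 for Tm7sf2, −0.24 to 0.96 for Scap, −0.15 to 0.94 for Pmvk, −0.34 to 1.24 for Mvd, −0.27 to 1.26 for Idi1, −0.35 to 0.67 for Sqle, −0.27 to 1.50 for Cyp51, −0.24 to 0.35 for Ebp, −0.24 to 0.90 for Fasn, −0.088 to 0.12 for Insig2 and −0.032 to 0.29 for Hsd17b7. The other 13 genes kept their sign throughout. Without 1 culture, 0 to 1 of the 27 genes passed (Scd1 without M1). M3 was lowest in 20 to 22 genes, its mean level was −1.09 to −0.94 and it was highest in 5 to 6 liver X receptor genes, under every alternative that kept M3 and changed single values. Genes higher in mature cultures numbered 23 to 26, and 18 without M3.

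Counts over all probe sets moved more. On chip A, 61 sets passed for stage, 1 with no filter, 39 with the labelling spike level as a block and 21 to 59 without 1 culture (21 without M5, 25 without M2). On chip B, 11 passed, 4 with no floor, 17 when the floor was the 50th percentile, 0 with no filter, 6 with a mean signal above the 60th percentile, 3 with no intensity trend, 7 with array weights, 17 with sex as a block, 6 with the spike level as a block and 3 to 11 without 1 culture. For sex, 1 set on chip A became 38 with no filter, 2 with the mean filter and 1 to 6 without 1 culture, and 0 on chip B became 6 with no filter and 0 to 1 without 1 culture. The cause was not tested. Scan day could not be fitted.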
